A study of Mus musculus with 59 samples.

Results

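Autosomal imprinted genes, which most tissues express from one parental copy, were followed through the first cell division of cloned mouse embryos (somatic cell nuclear transfer, SCNT). The genes were taken from the deposited expression table by name. They make up 40 of its 24421 rows, and 39 after Snurf and Snrpn, which share a transcript, were read as a sum of both. The study concerned acetylation of histone H3 at lysine 9 in fertilized and SCNT embryos. In SCNT the nucleus of a body cell is placed in an egg that has lost its own, and the labels name cumulus cells, which surround the egg, as the donors. The embryos carry the strain label BDF1. Untreated SCNT embryos were collected as 1-cell embryos 13 to 14 h after activation, as early 2-cell embryos at 20 to 21 h and as late 2-cell embryos at 33 to 34 h, and a further group, collected as late 2-cell embryos, had received TSA (trichostatin A), which blocks histone deacetylases. The labels list 5 libraries of polyadenylated RNA for each of these 4 groups, but the authors deposited 1 value per gene and group. A difference between groups therefore has no SD, replicate check or p-value, and everything below describes these 4 columns. Levels are given in FPKM, fragments scaled by transcript length and library size, computed back from the deposited log2(FPKM + 1) values. Differences are given in log2(FPKM + 1), and a gene was counted as higher or lower when its difference reached 1, which is 2-fold on that scale.

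Imprints are DNA methylation marks laid down in the egg or sperm at control regions, which keep one parental copy silent. After fertilization the zinc finger protein ZFP57 binds methylated control regions and, with TRIM28, protects their methylation while the rest of the genome loses it. A smaller class, called noncanonical, rests in the egg on trimethylation of histone H3 at lysine 27 and is known to be lost in SCNT embryos, whose genome comes from a body cell. The values here add up both parental copies, so they do not show which copy made an RNA. They give its level relative to the other polyadenylated RNA of the same column, not its amount per embryo. In such pooled embryos, fewer cells making an RNA and less of it per cell cannot be told apart.

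Of the 40 genes, 33 had a promoter window in the RefSeq table of build GRCm38.p6, which runs from 250 bases before to 50 bases after a transcript start. The hexamer TGCCGC, which ZFP57 recognizes when it is methylated, was searched on both strands, so that GCGGCA is a match on the other strand. Snurf and Snrpn have an identical window, so they were counted as 1 gene here too, which leaves 32. The hexamer occurred in a window of 9 of the 32 genes (28.1%) and of 13.0% of the 27024 genes with a window. A gene can have several windows, and 1 with the hexamer was enough to count it. By window, 11 of the 52 windows of imprinted genes held it, against 11.6% of the 32851 windows of all genes. That count takes the window shared by Snurf and Snrpn once for each of them. The windows of imprinted genes held a median of 12 CG pairs and those of all genes 7. The part of this base composition in the higher share was not tested, and a match is a stretch of letters, not a bound site. The stretches shown are those before the starts of genes whose levels are described further on, with capitals for the hexamer. For a gene with several windows, a window with most matches was used. They lie at chr7:60005196-60005345 (minus strand, up to 4 bases past the start that Snurf and Snrpn share), chr6:30737900-30738049 (plus strand, Mest), chr10:13090682-13090831 (plus strand, Plagl1), chr2:152686898-152687147 (plus strand, Mcts2) and chr2:10370301-10370450 (plus strand, Sfmbt2).
Snurf and Snrpn: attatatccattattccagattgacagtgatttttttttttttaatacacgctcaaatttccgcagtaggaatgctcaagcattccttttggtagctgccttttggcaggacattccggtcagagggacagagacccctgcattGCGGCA
Mest: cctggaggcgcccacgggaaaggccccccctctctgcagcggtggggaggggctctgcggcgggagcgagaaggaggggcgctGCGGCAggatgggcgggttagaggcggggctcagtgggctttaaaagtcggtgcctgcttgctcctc
Plagl1: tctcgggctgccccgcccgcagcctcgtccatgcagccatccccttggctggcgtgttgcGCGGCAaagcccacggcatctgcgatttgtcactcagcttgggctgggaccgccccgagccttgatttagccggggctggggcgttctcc
Mcts2: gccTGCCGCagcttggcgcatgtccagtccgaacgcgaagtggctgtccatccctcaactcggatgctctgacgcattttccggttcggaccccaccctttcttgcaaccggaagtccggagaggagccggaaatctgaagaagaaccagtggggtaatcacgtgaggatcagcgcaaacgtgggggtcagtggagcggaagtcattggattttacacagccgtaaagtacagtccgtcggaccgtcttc
Sfmbt2: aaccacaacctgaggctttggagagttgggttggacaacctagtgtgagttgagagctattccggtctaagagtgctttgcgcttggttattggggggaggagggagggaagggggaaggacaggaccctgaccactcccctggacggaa
The Snurf and Snrpn match begins 2 bases before their shared start, that of Plagl1 90 and that of Mcts2 247 bases before theirs. Mest has 2 matches in its window, at 67 bases before the start and at 242, and the stretch shown holds the first of these. The noncanonical gene Sfmbt2 has no match in its stretch.

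Imprinted genes were neither silent nor uniformly active. At 1 FPKM or more stood 17 of 39 genes in 1-cell embryos (43.6%, against 38.6% of all rows), 19 in early 2-cell embryos (48.7% against 38.8%), 25 in late 2-cell embryos (64.1% against 50%) and 24 with TSA (61.5% against 48.8%). Zfp57, counted here with the imprinted genes because it protects imprints, was the most abundant in the first pair of stages. The most abundant was the Snurf and Snrpn sum in untreated late 2-cell embryos and Impact, an inhibitor of the kinase GCN2, with TSA. The genes stayed under 1 FPKM in all 4 columns in 13 cases. Among these were H19 and Igf2, a noncoding RNA and a growth factor that share a control region, with H19 listed at 0 throughout and Igf2 between 0.0224 and 0.0818 FPKM. Dlk1 and Meg3, the growth regulator and the noncoding RNA that name the chromosome 12 domain, were also in this set, Meg3 with its highest value at 0.870 FPKM, as were the neuronal genes Ndn, Magel2 and Mkrn3, and Peg10, a retrotransposon-derived gene needed in the placenta. The remaining members of the set were Slc22a18, Kcnq1, Nnat, Rasgrf1 and Dcn.

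**Figure D1:**
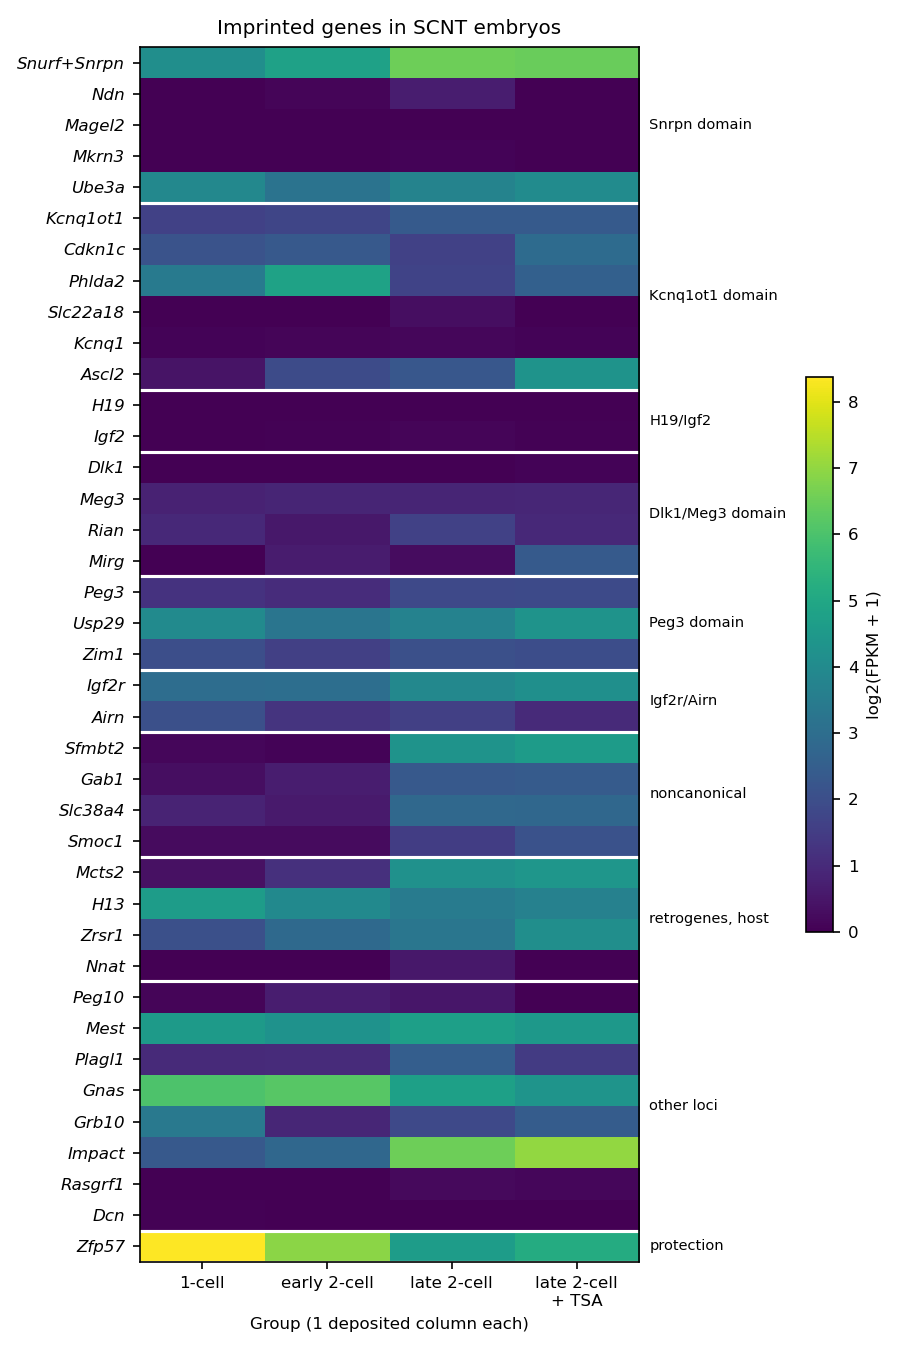
Level of the 39 imprinted genes in the 4 groups, as log2(FPKM + 1) by colour, with genes in rows grouped by locus and 1 deposited column per group. The H19/Igf2 rows are dark in every group, while Zfp57 runs from 332 FPKM in 1-cell embryos to 23.9 in untreated late 2-cell embryos.

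Between the 1-cell and the early 2-cell stage few imprinted genes differed. Of the 25 that reached 1 FPKM in an untreated column, 2 were at least 2-fold higher, or 8%, where 2.88% of all 13011 rows were, and 2 were at least 2-fold lower, or 8%, where 5.53% of all rows were. With 2 genes on each side, these shares describe single genes and not the class. Their median difference was 0.01, against -0.03 for all rows.

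The higher genes were Ascl2 and Phlda2, both at the end of chromosome 7 and both usually expressed from the maternal copy. Ascl2, a transcription factor of the trophoblast, was at 0.365 FPKM in 1-cell and 2.79 in early 2-cell embryos, a difference of 1.47 that was 0.54 with a pseudocount of 5 and 2.63 with 0.1. Phlda2, which restrains placental growth, was at 10.04 and 27.3 FPKM, a difference of 1.36. The lower genes were Grb10, an adaptor that dampens insulin receptor signalling, and Zfp57. Grb10 (chr11:11930499-12037428) was at 9.52 FPKM in 1-cell and 0.882 in early 2-cell embryos, 10.8 times lower in FPKM and a difference of -2.48 that lay between -3.29 and -1.30 under the other pseudocounts and scalings. Only 0.177% of rows had a difference that low or lower. Zfp57 was at 332 and 121 FPKM, a difference of -1.45.

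Late 2-cell embryos, in which the embryonic genome is active, had higher levels of some imprinted genes than early 2-cell embryos, as of many rows of the table. Of the 25 genes that reached 1 FPKM, 9 were at least 2-fold higher, or 36%, where 47.1% of all rows were, and 3 were at least 2-fold lower, or 12%, where 10.7% of all rows were. The count of higher genes thus lay below the share in the whole table, in which the median row was 0.89 higher. The median of the imprinted genes was 0.60. Late 2-cell values depended on scaling: the share of higher rows among all 2-fold different rows was 81.4% as deposited (6128 higher, 1398 lower), 54.3% once median-ratio scaled, with 3757 higher and 3156 lower, and 50.1% once quantile normalized, with 3376 and 3366. Median-ratio scaling moved the median of all rows by -0.76 and quantile normalization by -0.87. After either scaling 5 imprinted genes were higher and 5 were lower, the 2 added below being Cdkn1c and H13.

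The noncanonical genes made up 4 of the 9. All 4 were under 1 FPKM in the 1-cell and early 2-cell columns. They thus passed the filter only through the late 2-cell column and could not be counted as lower. Sfmbt2 (chr2:10370440-10595253), a Polycomb group protein whose gene also hosts a large rodent microRNA cluster, was at 0.106 FPKM in 1-cell, 0.0617 in early 2-cell and 18.8 in late 2-cell embryos, a difference of 4.22 that 2.03% of rows reached or exceeded. With a pseudocount of 5 this difference was 2.23, and with 0.1 it was 6.87. Slc38a4, an amino acid transporter, was at 0.777, 0.507 and 6.20 FPKM, a difference of 2.26. It was 1.62 after median-ratio scaling, 1.29 after quantile normalization, 1.02 with a pseudocount of 5 and 3.37 with 0.1. Gab1, a signalling adaptor downstream of growth factor receptors, was at 0.254, 0.605 and 4.03 FPKM. Its difference of 1.65 was 1.03 after median-ratio scaling and 0.68 after quantile normalization. Smoc1, a secreted matrix protein, was at 0.173, 0.180 and 1.90 FPKM, and its difference of 1.30 was 0.88 and 0.59 after the same scalings. These 4 genes together summed to 1.31 FPKM in 1-cell, 1.35 in early 2-cell and 30.9 in late 2-cell embryos.

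Among genes whose imprint is DNA methylation, Impact had the highest difference. It was at 4.01 FPKM in 1-cell, 5.97 in early 2-cell and 90.9 in late 2-cell embryos, 15.2 times higher than in early 2-cell embryos and a difference of 3.72. Mcts2, a retrogene copy of the translation factor gene Mcts1 that lies in an intron of H13, was at 0.301, 1.25 and 17.8 FPKM, a difference of 3.06 that was 1.86 with a pseudocount of 5. Its parent Mcts1 was at 0.93, 0.71 and 4.05 FPKM, so reads shared by the copies cannot be told apart. The host H13, a membrane protease, went the other way in level, at 23.9, 14.9 and 10.1 FPKM, a difference from early to late 2-cell embryos of -0.51. The Snurf and Snrpn sum, a component of small nuclear ribonucleoproteins together with its upstream reading frame, was at 16.8, 26.7 and 92.4 FPKM. Its difference of 1.75 was 0.76 after median-ratio scaling. Read as separate rows, Snrpn was 2.29 higher and Snurf 3.25 lower, opposite signs for rows that overlap. Plagl1, a zinc finger transcription factor that limits growth, was at 0.988, 1.03 and 4.66 FPKM, a difference of 1.48 that was 0.79 and 0.43 after the scalings. Rian, a noncoding RNA of the chromosome 12 domain that hosts small nucleolar RNAs, was at 0.946, 0.451 and 2.06 FPKM. It was the one higher gene usually expressed from the maternal copy, and its difference of 1.08 was 0.57 and 0.22 after the scalings.

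The lower genes were Phlda2, Zfp57 and Gnas, and they were also lower after both scalings. Phlda2 (chr7:143501545-143503145) was at 27.3 FPKM in early and 2.23 in late 2-cell embryos, 12.2 times lower in FPKM and a difference of -3.13. Only 0.561% of rows had a difference that low or lower. Its domain neighbour Kcnq1ot1, the paternally expressed noncoding RNA known to silence genes of the domain in cis, was at 2.39 and 4.13 FPKM, a difference of 0.60. Cdkn1c, a cell cycle inhibitor in the same domain, was at 4.09 and 2.11 FPKM, a difference of -0.71 that was -1.44 after median-ratio scaling. Zfp57 (chr17:37001163-37010729) was at 121 and 23.9 FPKM, a difference of -2.29. Gnas, the stimulatory G protein subunit at a locus with several overlapping imprinted transcripts, was at 73.0 and 26.0 FPKM, a difference of -1.46 that was -2.43 after median-ratio scaling.

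By the copy usually expressed, 14 of 22 paternal and 8 of 14 maternal genes reached 1 FPKM. Of these 14 paternal genes 8 were at least 2-fold higher (57.1%, against 47.1% of all rows) and 0 were lower, and of the 8 maternal genes 1 was higher (12.5%) and 1 was lower (12.5%, against 10.7% of all rows). Their median differences were 1.39 and 0.41, against 0.89 for all rows. Summed over the list, paternal genes were at 70.8 FPKM in 1-cell, 74.8 in early 2-cell and 293.5 in late 2-cell embryos, and maternal genes at 63.5, 68.2 and 51.6 FPKM. Most of the paternal sum in late 2-cell embryos came from the Snurf and Snrpn sum at 92.4 FPKM and Impact at 90.9. The maternal list holds Ube3a, imprinted in neurons only, at 12.6 FPKM in late 2-cell embryos. The lower maternal sum in late 2-cell embryos rests on Phlda2, and without it the sums were 53.5, 40.9 and 49.4 FPKM, higher in late than in early 2-cell embryos. Rian, the higher maternal gene, passed the filter only through the late 2-cell column, as did the 4 noncanonical genes. None of these could be counted as lower. The paternal list held all 4 noncanonical genes. Without them its sums were 69.5, 73.4 and 262.6 FPKM, 4 of 10 genes above 1 FPKM were higher (40%), and the median difference was 0.70, both below the values of all rows. After median-ratio scaling 5 of the 14 paternal genes were higher, and of the 8 maternal genes 0 were higher and 3 lower. Quantile normalization gave the same counts. Of all 13011 rows 3757 were higher and 3156 lower after median-ratio scaling, and 3376 and 3366 after quantile normalization. The 5 paternal genes held the noncanonical Sfmbt2 and Slc38a4 after both scalings and Gab1 after median-ratio scaling. These passed the filter only through the late 2-cell column. The difference between the paternal and maternal lists was not tested.

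**Figure D2:**
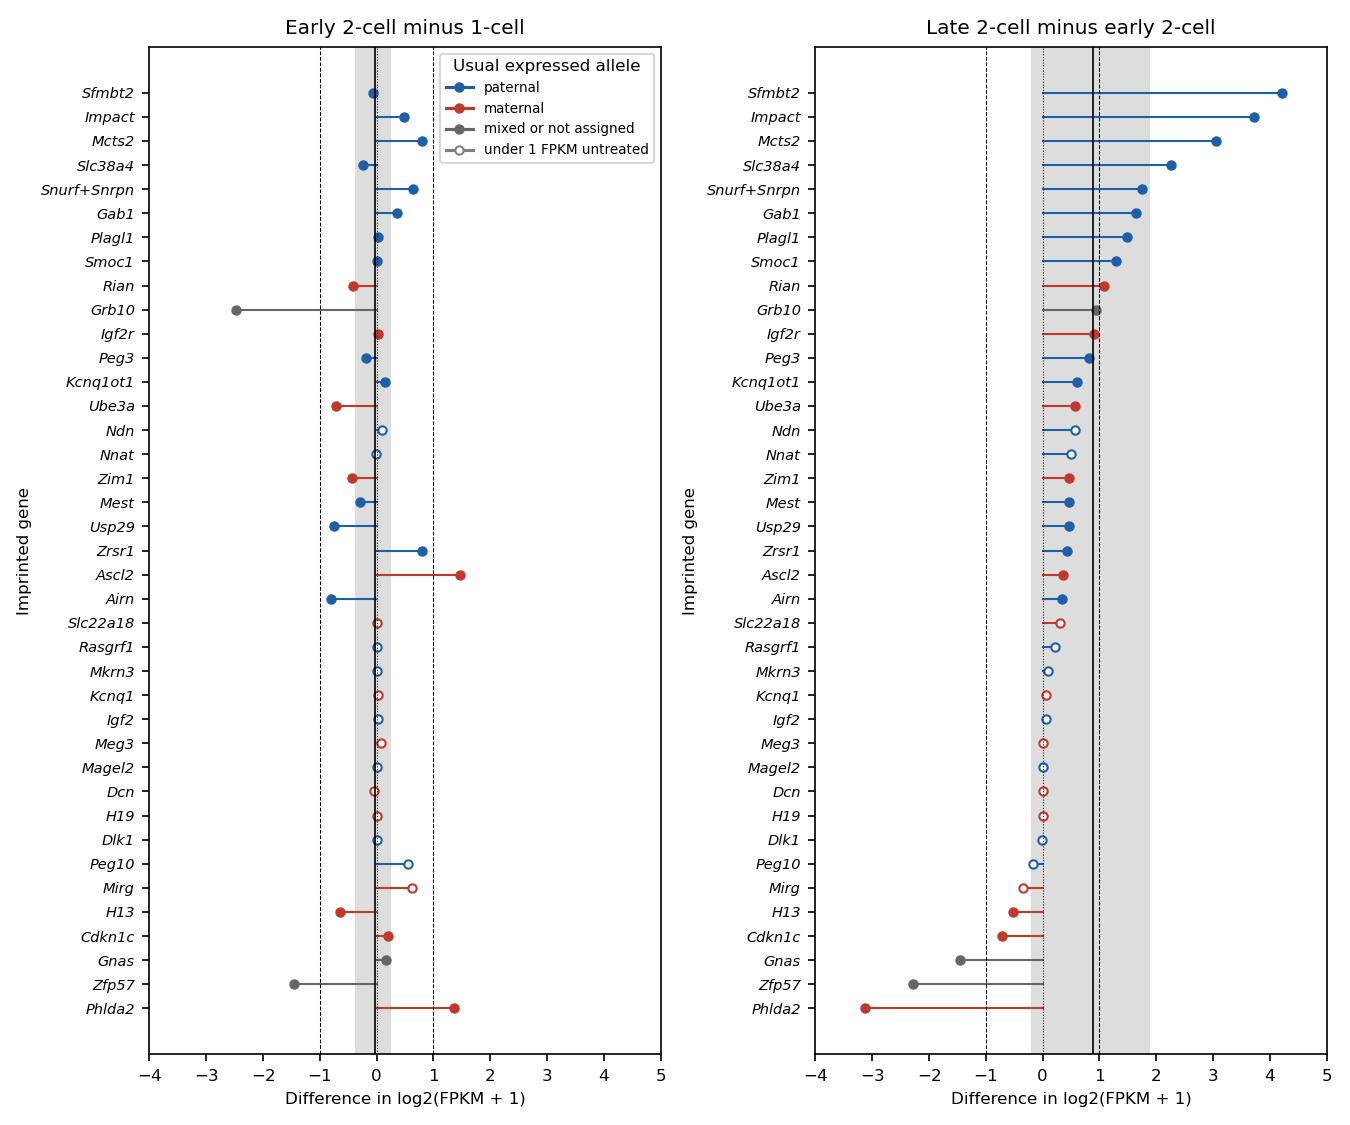
Difference of each imprinted gene in log2(FPKM + 1) between early 2-cell and 1-cell embryos (left) and between late and early 2-cell embryos (right), coloured by the copy usually expressed, with the interquartile range of all tested rows in grey and their median as a solid line. The solid line at right stands at 0.89, and Sfmbt2, Impact and Mcts2 lie above 3 while Phlda2 lies at -3.13.

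TSA-treated late 2-cell embryos had higher FPKM values of a small set of imprinted genes, with 3 that reached 2-fold, each usually maternally expressed. Of 26 genes that reached 1 FPKM with or without TSA, 3 were at least 2-fold higher, or 11.5%, where 2.5% of 12755 rows were, and 1 was at least 2-fold lower, or 3.85%, where 4.08% of rows were. The 3 are single genes, and 2 of them lie in 1 domain. The third, Mirg, was under 1 FPKM without TSA. It passed the filter only through the TSA column and could not be counted as lower. The median difference of the 26 was 0.23, against -0.08 for all rows. Higher rows made up 38% of all 2-fold different rows (319 higher, 520 lower), 61.1% once median-ratio scaled, with 366 higher and 233 lower, and 53.7% once quantile normalized, with 346 and 298, and median-ratio scaling moved the median of all rows by 0.13.

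Ascl2 (chr7:142966822-142969264) was at 3.83 FPKM without and 18.5 with TSA, 4.84 times higher in FPKM. Its difference of 2.02, which 0.267% of rows reached or exceeded, lay between 1.41 and 2.25 under the other pseudocounts and scalings. Cdkn1c (chr7:143458339-143461059) was at 2.11 and 6.66 FPKM, a difference of 1.30 that was 0.71 with a pseudocount of 5. Phlda2, at 2.23 and 4.92 FPKM, was 2.20 times higher in FPKM. Its difference in log2(FPKM + 1) was 0.87, so it was not counted as higher. Kcnq1ot1 was at 4.13 and 4.19 FPKM, a difference of 0.02. Slc22a18 and Kcnq1, transporter and potassium channel genes of the same domain, were under 1 FPKM in both groups. Of the 6 genes of the domain, the 3 maternal genes above 1 FPKM were thus higher by 0.87 to 2.02, while the noncoding RNA was at nearly the same level. The whole domain summed to 16.0 FPKM in 1-cell, 36.6 in early 2-cell and 12.7 in late 2-cell embryos and to 34.4 with TSA.

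**Figure D3:**
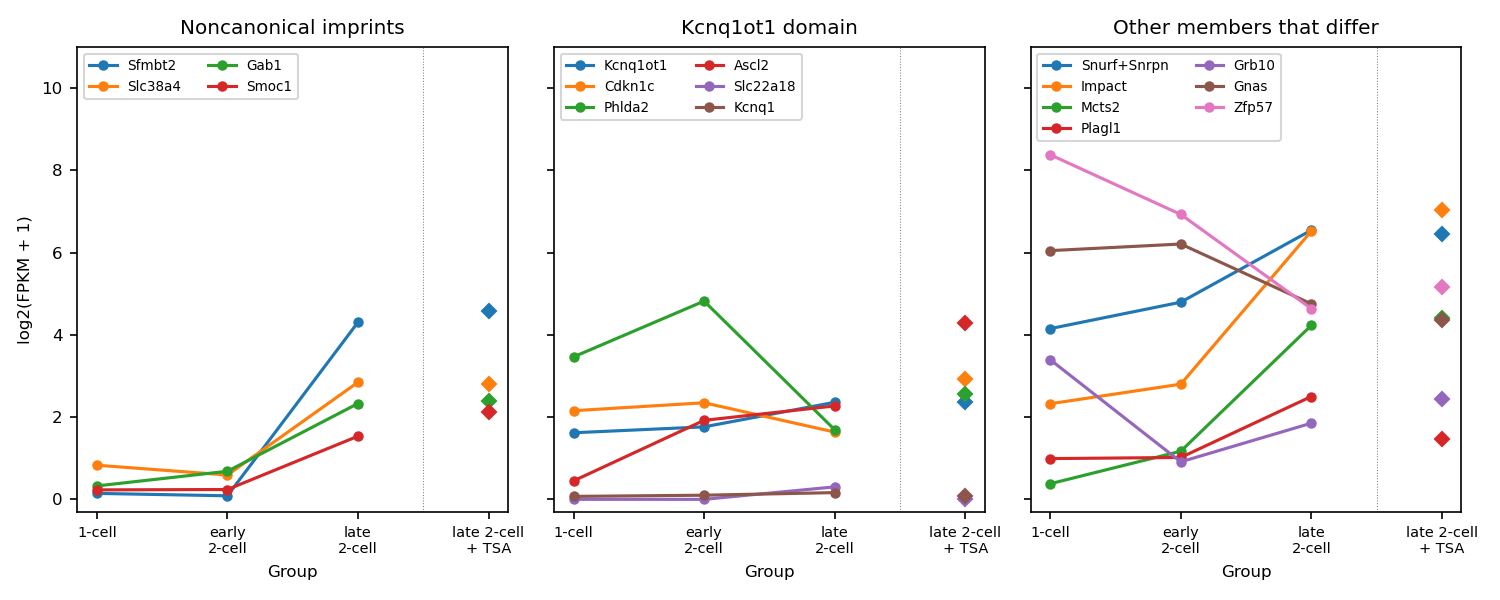
Level in log2(FPKM + 1) of the noncanonical genes, of the Kcnq1ot1 domain and of other genes at least 2-fold apart in some comparison, with lines joining the 3 untreated stages and diamonds for TSA-treated late 2-cell embryos, 1 deposited value per point. The other genes drawn are the Snurf and Snrpn sum, Impact, Mcts2, Plagl1, Grb10, Gnas and Zfp57. Mirg and Rian, also at least 2-fold apart in a comparison, are not drawn. Ascl2 stands at 18.5 FPKM with TSA against 3.83 without, and the Kcnq1ot1 points of these groups coincide.

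The third higher gene was Mirg (chr12:109734981-109749458), a noncoding RNA that hosts microRNAs in the chromosome 12 domain. It was listed at 0 in 1-cell embryos and stood at 0.540 FPKM in early 2-cell embryos, at 0.211 in the untreated late group and at 4.22 with TSA. The difference with TSA was 2.11, which 0.22% of rows reached or exceeded, and it was 0.82 with a pseudocount of 5 and 3.80 with 0.1. Its domain neighbours did not share it: Meg3 was at 0.824 and 0.870 FPKM, and Rian at 2.06 without and 0.973 with TSA, a difference of -0.63. RefSeq places 10 microRNA hairpins within Mirg, with 19 mature microRNAs and 18 seeds. They are shown in part because the RNA measured is their host. The seed, bases 2 to 8, is in capitals, which the first pair share and the last pair do not.
mmu-miR-453: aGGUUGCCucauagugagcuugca
mmu-miR-496a-5p: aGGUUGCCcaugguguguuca
mmu-miR-154-3p: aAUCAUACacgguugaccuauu
mmu-miR-410-3p: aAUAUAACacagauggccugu
Mature microRNAs are not polyadenylated and were not measured here.

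The one lower gene was Plagl1 (chr10:13090832-13131694), at 4.66 FPKM without and 1.77 with TSA, a difference of -1.03 that was -0.83 after median-ratio scaling, -0.82 after quantile normalization and -0.51 with a pseudocount of 5. The noncanonical genes, all higher in late than in early 2-cell embryos, differed by -0.05 to 0.58 with TSA, 0 of 4 by 2-fold. Sfmbt2 was at 18.8 and 23.1 FPKM, Gab1 at 4.03 and 4.28, Slc38a4 at 6.20 and 5.96 and Smoc1 at 1.90 and 3.34. Impact was at 90.9 and 129.7 FPKM, a difference of 0.51, and the Snurf and Snrpn sum at 92.4 and 86.8, a difference of -0.09. Zfp57 was at 23.9 and 34.8 FPKM, a difference of 0.52. Zrsr1, a splicing factor retrogene in an intron of Commd1, was at 8.74 and 16.7 FPKM, just below the 2-fold mark with a difference of 0.86 that was 1.00 after quantile normalization.

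**Figure D4:**
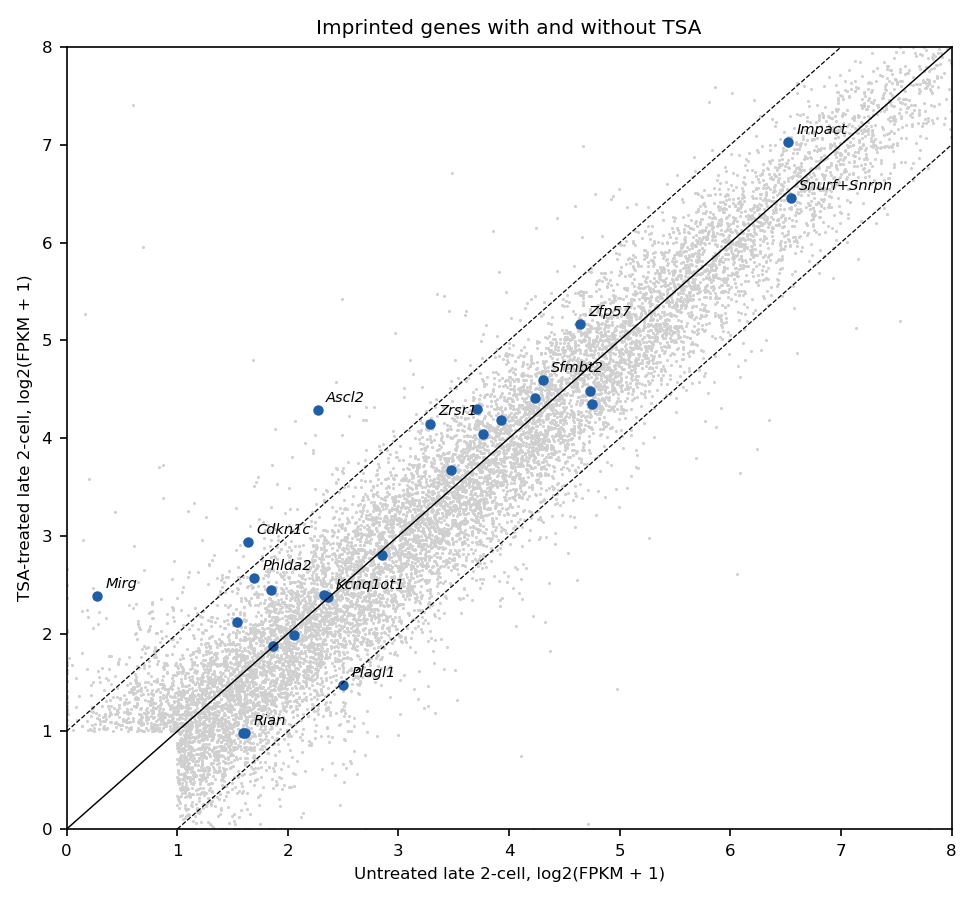
Level of each row with 1 FPKM or more in either group in untreated (x) and TSA-treated (y) late 2-cell embryos, in log2(FPKM + 1), with all rows in grey, imprinted genes in blue, equality as a solid line and a difference of 1 as dashed lines, and with rows above 8 outside the frame. Ascl2, Mirg and Cdkn1c lie above the upper dashed line, and Plagl1 lies on the lower one.

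The remaining imprinted genes above 1 FPKM differed by less than 1 in log2(FPKM + 1) in all 3 comparisons as deposited. They include Usp29, a deubiquitinase, and Zim1, a zinc finger gene, which lie with the zinc finger gene Peg3 in the Peg3 domain. Its sums were 19.5, 11.6 and 17.8 FPKM over the untreated stages and 24.2 with TSA. Igf2r, the receptor that clears IGF2, was at 6.98, 7.14, 14.2 and 17.1 FPKM in the same order, and Airn, the antisense RNA that silences it, at 3.14, 1.38, 2.02 and 0.979. Ube3a, a ubiquitin ligase that is imprinted in neurons only, was at 14.0, 8.11, 12.6 and 15.4 FPKM, and Mest at 22.5, 18.2, 25.5 and 21.3. Peg3, Igf2r and Grb10 were 0.81, 0.90 and 0.94 higher in late than in early 2-cell embryos, and after quantile normalization -0.19, -0.17 and -0.04. Of the 40 genes 24 overlap another protein-coding or long noncoding gene, such as Airn with Igf2r, and how their reads were divided is not given in the sources used here.

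The columns also differed in markers of other cells, which lie beside these differences. Cumulus and granulosa cell markers, 30 genes for the donor cell type and its neighbours, summed to 41.7 FPKM in 1-cell, 43.5 in early 2-cell and 129.9 in late 2-cell embryos and to 64.8 with TSA. At 1 FPKM or more stood 9, 9, 11 and 11 of them, and 5, 9, 6 and 8 were listed at 0, with Lum and Col3a1 at 0 in every column. With or without TSA 13 of the 30 reached 1 FPKM, and the rest could not be counted. Of the 13, 0 were at least 2-fold higher with TSA, where 2.5% of all rows were. The 4 lower ones (Lgals1, Anxa2, Fshr and S100a6) made up 30.8%, against 4.08% of all rows. In late against early 2-cell embryos 14 reached 1 FPKM, of which 8 were higher (57.1%, against 47.1% of all rows) and 2 were lower (14.3% against 10.7%). Blood markers summed to 0.724, 5.26, 85.4 and 126.2 FPKM over the 4 columns, oocyte markers to 5054, 3662, 1760 and 1183, and 2-cell markers to 177, 295, 658 and 1036. These sums hide genes that went the other way. With TSA, 5 of 10 blood markers passed the filter. Of these, 1 was at least 2-fold higher (Lyz2, 20%, against 2.5% of all rows). Cd74 and Cd52 were lower (40% against 4.08%). Among the 10 2-cell markers 6 differences with TSA were above 0 and 4 below. Usp17lb and Usp17lc were at least 2-fold higher (20%, against 2.5% of all rows). Of the 14 oocyte markers that passed the filter, 0 had a 2-fold difference with TSA, where 2.5% of all rows were higher and 4.08% lower. The part of these markers in the differences of imprinted genes was not tested.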

How the data were processed

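The data are the authors' deposited log2(FPKM + 1) values, per the file headers, 1 column per group and 24421 genes. The submitters' processing notes name mm10, Cufflinks, deepTools 2.5.7, Bowtie2 2.3.4.3, SAMtools 1.7, HISAT2 2.1.0 and StringTie 1.3.4, without roles. Not given in the sources used here are the annotation and how the 5 libraries of a group became 1 value. No counts come with these columns, so the depth is unknown. The 1-cell column is matched to its group by its time of 13 h, an inference, and 2 columns that match no RNA library were not used. Of the 59 samples, 4 libraries injected with Dux and 35 chromatin libraries were not analysed here.

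FPKM were computed back from the log2 values, and differences taken with a pseudocount of 1. A row entered a comparison at 1 FPKM or more in either late 2-cell column, or for stages in any untreated column. Snurf and Snrpn were summed, except where given as separate rows. All 3 comparisons used Python 3.11.15, pandas 2.3.3 and numpy 2.4.6, and the calculation was tested on simulated data. Full values are given for imprinted genes with a difference of at least 1 or among the 5 highest levels of a column, others by range, with further genes chosen for a domain or an overlap after their values were seen. The genes and lists were chosen with earlier results of these data known.

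Alternatives were pseudocounts of 0.1 and 5, no filter, a filter of 5 FPKM, median-ratio scaling, quantile normalization, and Snurf and Snrpn kept separate. Median-ratio factors came from the 14388 genes above 0 in all 4 columns. A second version, from the 8090 genes at 1 FPKM or more in all 4 columns, was added after the values of the first had been seen, and both are reported. Positions, promoters and microRNAs are from RefSeq, GRCm38.p6.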

Additional observations from a re-analysis of the deposited data

How the results depend on the processing

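Of 119 recomputed values of the 20 gene differences of at least 1, 99 stayed at 1 or more in the same direction, 20 kept the direction under 1 and 0 changed sign. Part of this tally was fixed in advance. Keeping Snurf and Snrpn separate left the difference of every other gene as it was. A pseudocount of 0.1 can only enlarge a difference, and no pseudocount can change its sign. Only the scalings could change a sign. With TSA, the count of lower genes (1 as deposited) was 2 with a pseudocount of 0.1 and 0 with a pseudocount of 5, a filter of 5 FPKM and each scaling, and the count of higher genes (3) was 4 with a pseudocount of 0.1 (Phlda2 added), 1 with a pseudocount of 5, 2 with a filter of 5 FPKM, 4 after quantile normalization (Zrsr1 added) and 4 with Snurf and Snrpn separate (Snurf added). The TSA median (0.23) was 0.24 and 0.18 with pseudocounts of 0.1 and 5, 0.0152 with no filter, 0.28 with a filter of 5 FPKM, 0.36 after either median-ratio version, 0.32 after quantile normalization and 0.26 with Snurf and Snrpn separate. From 1-cell to early 2-cell, the count of higher genes (2) was 1 with a pseudocount of 5 or a filter of 5 FPKM. It was 3 with a pseudocount of 0.1 (Mcts2 added) or with Snurf and Snrpn separate (Snurf added). The count of lower genes (2) was 3 with a pseudocount of 0.1 (Airn added). The median (0.01) was 0.0322 and 0.0022 with the pseudocounts, 0 with no filter, -0.0586 with the stricter filter, 0.0292 and 0.0356 after the median-ratio versions, -0.0260 after quantile normalization and 0.0184 with Snurf and Snrpn separate. From early to late 2-cell, the count of higher genes (9) was 11 with a pseudocount of 0.1. It was 5 with a pseudocount of 5, a filter of 5 FPKM, median-ratio scaling or quantile normalization. The count of lower genes (3) was 5 after each scaling and 4 with Snurf and Snrpn separate (Snurf added). The median (0.60) was 0.76 and 0.37 with the pseudocounts, 0.43 with no filter, 0.57 with the stricter filter, -0.16 after median-ratio scaling, -0.42 after quantile normalization and 0.59 with Snurf and Snrpn separate. The median-ratio version over genes at 1 FPKM or more, added after the planned one had been seen, gave 8 higher genes there and a median of 0.13, nearer to the deposited values than the planned version. For all rows it gave 405 higher and 291 lower with TSA, 546 and 576 from 1-cell to early 2-cell and 4590 and 2362 from early to late 2-cell, where the planned version gave 550 and 695 in the second comparison, quantile normalization 511 and 560, and the deposited values 375 and 720 (higher rows 48.7%, 44.2%, 47.7% and 34.2% of these). The summed FPKM of the imprinted genes in 1-cell, early 2-cell, late 2-cell and TSA-treated embryos (541, 338, 398 and 482) was 694, 461, 270 and 364 after median-ratio scaling, 602, 415, 319 and 429 in its added version and 579, 437, 301 and 383 after quantile normalization, so that late 2-cell embryos were above early 2-cell embryos as deposited and below them after each scaling. Zfp57, which protects imprints, supplied 332 of the 541 FPKM in 1-cell embryos. Without it the deposited sums were 209, 217, 374 and 447 FPKM in the same order. The cause of the change with scaling was not tested. No paired analysis was possible because each group has 1 deposited column, and for the same reason no library could be left out. The depth behind the values is unknown.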

Other observations

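Among 41 further imprinted genes of the table, 23 reached 1 FPKM with or without TSA, and 1 of these was at least 2-fold higher (4.35%, against 2.5% of all rows) and 1 lower (4.35% against 4.08%). Sgce, a sarcoglycan gene next to Peg10, was at 5.47 FPKM without and 12.7 with TSA, and Peg13, a noncoding RNA within Trappc9, at 14.0 and 4.82 FPKM, a difference of -1.37. In late against early 2-cell embryos 9 of the 25 that reached 1 FPKM were higher (36%, below the 47.1% of all rows) and 1 was lower (4% against 10.7%). Peg13 was at 0.0833 and 14.0 FPKM and Jade1, a subunit of a histone acetyltransferase complex, at 0.543 and 10.9. Ampd3, an AMP deaminase gene, was lower, at 10.5 and 2.00 FPKM. From 1-cell to early 2-cell 0 of these 25 were higher and 2 were lower (8%, against 5.53% of all rows), Commd1 (66.0 and 23.4 FPKM) and Copg2 (17.7 and 7.09 FPKM).

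Of 26 genes that write, protect or remove the marks of imprints, 0 were at least 2-fold higher or lower with TSA. Of all rows 2.5% were higher and 4.08% lower, so in a list of 26 genes a count of 0 is near these shares. The list includes Tet1, Tet2 and Tet3, whose enzymes remove DNA methylation. All 26 reached 1 FPKM. From 1-cell to early 2-cell 0 were higher and 3 were lower (11.5%, against 5.53% of all rows). These were Dnmt1, the maintenance DNA methyltransferase, at 39.7 and 7.60 FPKM, Setdb1, a histone H3 lysine 9 methyltransferase, at 92.5 and 39.3, and Ehmt1, another, at 11.4 and 5.19. From early to late 2-cell 10 were higher (38.5%, against 47.1% of all rows) and 7 were lower (26.9% against 10.7%). Trim28, the partner of ZFP57, was at 6.02 FPKM in early and 42.8 in late 2-cell embryos, where Zfp57 itself was 2.29 lower on the log2(FPKM + 1) scale. Genes lower in late 2-cell embryos included Ezh2 and Eed, which belong to the complex that trimethylates histone H3 at lysine 27.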
